A study of Mus musculus with 12 samples.

Results

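The genes of the circadian clock described here are Arntl, Clock, Per1, Per2, Per3, Cry1, Cry2, Nr1d1, Nr1d2 and Dbp, 10 of the 52636 gene identifiers in the count files. They were chosen by name, through the Ensembl identifiers that carry these symbols in GENCODE M21. All 10 passed the filter on low counts, with 305 reads in the lowest library and 14167 in the highest, beside 21440 genes tested in all. Lung lymphatic endothelial cells (LECs) were sorted from Prox1-EGFP mice, in which EGFP is driven by the lymphatic factor Prox1, as live cells that were EGFP+ and CD31+ and lacked EpCAM and the lineage markers. All mice carried the reporter. The mice of the smoke groups breathed cigarette smoke (CS) on 5 days per week from 6 weeks of age, and age-matched mice kept in room air (RA) served as controls. Acute exposure lasted 8 weeks (labelled 8wk) and chronic exposure 24 weeks or more (labelled Aged). There were 2 acute RA libraries (F, M), 2 acute CS libraries (F, M), 3 chronic RA libraries (F, M1, M2) and 5 chronic CS libraries (F, M1 to M4), named by sex and number. An acute library pooled 2 to 5 mice and a chronic library held 1 mouse, so the spread within a group is that between pools or between single mice. Mice lived under 12 hours of light and 12 hours of darkness, and the time of day at which lungs were taken is not given in the sources used here and may differ between groups.

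Total counts ranged from 18821438 to 56998590. The 4 acute libraries and chronic CS M3 and M4 held over 40000000 counts each, and the chronic RA libraries and chronic CS F, M1 and M2 held fewer. Prox1, the defining factor of lymphatic identity, stood at 1042 and 1262 CPM, read counts scaled to the total of the library, in the acute CS libraries and at 1814 to 2476 CPM in the other 10. In acute CS 7 of 8 lymphatic genes had a lower mean, with a sum of 6485 to 9822 CPM against 15250 to 17070 CPM in acute RA, and Lyve1 had a higher one, at 568 and 986 CPM against 442.5 and 536 CPM. Several markers of other cells were higher in both acute CS libraries. All 8 of 8 leukocyte genes had a higher mean there, with a summed level of 4502 to 8868 CPM against 560.0 to 642.9 CPM in acute RA, and Ptprc, which encodes the leukocyte antigen CD45, reached 154 and 285 CPM. All 8 blood endothelial genes also had a higher mean, at 6291 to 6481 CPM against 2780 to 3633 CPM, and so had all 6 mesenchymal genes, at 425 to 699.9 CPM against 82.3 to 154 CPM. The 8 epithelial genes did not move alike, at 8472 CPM in acute CS F and 219 CPM in acute CS M against 1035 to 1841 CPM in acute RA, and nor did the 4 erythroid genes, at 9.74 and 655.5 CPM against 35.5 to 65.2 CPM. In chronic CS all 8 epithelial genes had a higher mean, with a sum of 1152 to 4935 CPM against 242 to 497 CPM in chronic RA. There 5 of 6 mesenchymal genes had a higher mean, at 163 to 268 CPM against 102 to 119.7 CPM without overlap, and 6 of 8 leukocyte genes, at 520.1 to 2223 CPM against 432 to 910.4 CPM. Blood endothelial genes had a higher mean in 7 of 8, with overlapping sums of 2604 to 3660 CPM against 3312 to 3384 CPM, in which Plvap had the largest share, and Vwf stood at 88.6 to 276 CPM against 51.0 to 61.4 CPM without overlap. All 4 erythroid genes had a lower mean, at 8.81 to 314 CPM against 185 to 402 CPM, and 5 of 8 lymphatic genes, at 14900 to 21220 CPM against 19930 to 22930 CPM, both with overlap. The part of these cells in the values below was not tested, and in sorted bulk samples fewer cells of a type and less RNA per cell cannot be told apart.

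The clock is a feedback loop of transcription that runs in nearly every cell. Clock and BMAL1, the protein of Arntl, bind E-box sequences and switch on the Per and Cry genes, whose proteins return to the nucleus and block that pair. In a second loop the nuclear receptors REV-ERB alpha (Nr1d1) and REV-ERB beta (Nr1d2), themselves driven through E-boxes, repress Arntl through ROR response elements (ROREs). Dbp is a direct output gene whose protein activates D-box sequences, and its mRNA swings strongly over the day. In most tissues Arntl mRNA peaks at about the opposite time of day to Dbp and Nr1d1.

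The proximal promoters show which of these elements lie next to the start sites. Windows of 300 bases, from 250 before to 50 after each start, were available in RefSeq (GRCm38.p6) for 9 of the 10 genes. Both strands were searched for the E-box CACGTG, the variant CACGTT, the D-box TTATGTAA and AGGTCA, the core of the RORE, and none of these overlapped another in the stretches shown. Of all 32851 windows, 7.15% held CACGTG, 4.68% CACGTT, 0.938% TTATGTAA and 16.3% AGGTCA. The stretches below show 1 or more examples of each motif, with the motif in capitals and each sequence written 5′ to 3′ along the gene's strand.
Per1, chr11:69098771-69098800, plus strand: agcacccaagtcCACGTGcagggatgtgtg
Cry1, chr10:85185097-85185145, minus strand: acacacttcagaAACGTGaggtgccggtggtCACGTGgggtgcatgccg
Nr1d1, chr11:98775388-98775417, minus strand: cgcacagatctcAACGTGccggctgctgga
Ciart, chr3:95882255-95882356, minus strand: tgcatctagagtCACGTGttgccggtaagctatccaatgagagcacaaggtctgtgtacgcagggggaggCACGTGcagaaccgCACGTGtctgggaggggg
Per3, chr4:151044804-151044882, minus strand: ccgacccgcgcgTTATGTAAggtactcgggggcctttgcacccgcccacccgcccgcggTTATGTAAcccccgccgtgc
Arntl, chr7:113207530-113207559, plus strand: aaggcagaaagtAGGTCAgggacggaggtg
The E-box of Per1 began 166 bases before the first of its 2 starts in RefSeq, which lies inside the gene as GENCODE annotates it, and Cry1 carried a CACGTG 60 bases and a CACGTT, read from the other strand as AACGTG, 79 bases before its start. Nr1d1 held CACGTT 28 bases before its start, also on the other strand. Per3 alone of the 9 genes with windows held a D-box there and had 2 of them, 205 and 158 bases before the start. In Arntl the RORE core lay 31 bases after a start site, within an annotated exon. The RORE core was not particular to Arntl and also lay 77 bases before the start of Nr1d2, 137 before the same start of Per1 and 119 before 1 start of Clock. Cry2 held CACGTT 166 bases before its start, and of the 9 genes with windows Per1 and Cry1 alone held CACGTG. Ciart, a repressor of the Clock and BMAL1 pair that is not among the 10 genes, is shown because it held 3 E-boxes. The Dbp window held none of the 4 motifs, and Per2 had no window in the table. A match is only a run of letters, and binding was not measured.

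Read counts were scaled to CPM with TMM factors (trimmed mean of M-values), and CPM per kilobase of exon (FPKM) was used to set genes beside each other. In the 5 RA libraries the nuclear receptors stood highest, with Nr1d1 at 33.1 ± 8.78 FPKM and Nr1d2 at 24.7 ± 6.86 FPKM (mean ± SD, n = 5). Dbp followed at 11.98 ± 4.99 FPKM and Cry1 at 9.51 ± 2.62 FPKM. Per2, Cry2 and Clock lay between 5.03 and 7.34 FPKM, Arntl at 4.29 ± 1.52 FPKM, Per3 at 4.003 ± 1.82 FPKM and Per1 at 2.42 ± 0.88 FPKM. Nr1d1, Nr1d2, Dbp and Cry1 were the highest 4 in the means of both room air groups, but the order below them was not the same. Arntl was the lowest in acute RA (2.99 FPKM) and stood above Cry2, Clock and Per2 in chronic RA (5.15 FPKM). Every neighbouring pair in this order overlapped in its range over the 5 libraries, whereas Nr1d1 (lowest 20.9 FPKM) lay above Dbp (highest 19.6 FPKM) in all of them.

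**Figure D1:**
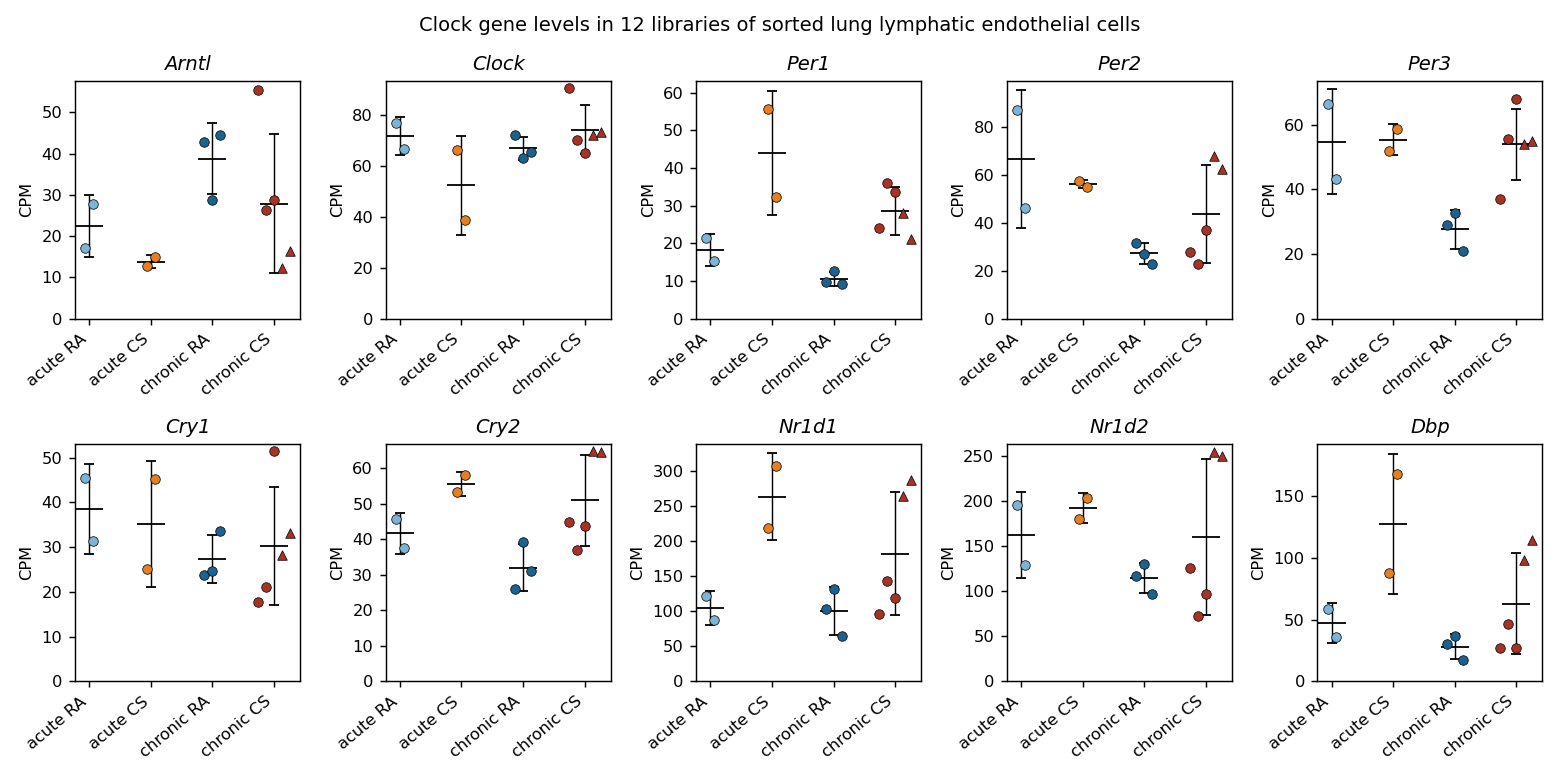
Level of each of the 10 clock genes (CPM, linear axes from 0) in every library, by group, with the group mean and SD as a bar; triangles mark chronic CS M3 and M4. Per1 lies between 21.2 and 36.1 CPM in chronic CS and between 9.09 and 12.8 CPM in chronic RA, and for Dbp, Nr1d1 and Nr1d2 the triangles lie above all other chronic libraries.

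After chronic CS, 9 of the 10 genes had a higher fitted level than in chronic RA, and Per1 and Per3 were the genes whose groups stood apart. Their groups did not overlap, at 2.71-fold for Per1 and 1.95-fold for Per3. No gene passed the limit of 0.05 on the Benjamini-Hochberg adjusted p of edgeR (quasi-likelihood F-test), by which 0 of 21440 genes (0.0%) were called, with 2341 at an unadjusted p under 0.05 and 594 called by DESeq2. Of the 10 genes, 5 had an unadjusted p under 0.05 (10.9% of all genes did), all of them higher in CS, and 2 had groups that did not overlap (9.41% of all genes). The median log2 fold change of the 10 was 0.68, beside 0.01 over all genes tested. With chronic CS F, M1 and M2 alone the fitted value was 0.28 for Dbp, 0.27 for Nr1d1, 0.12 for Per2 and -0.21 for Nr1d2. Per1 and Per3 had 1.58 and 0.97 in that fit. Clock genes also varied together, with r = 0.952 between Dbp and Nr1d1 over the 12 libraries, so these counts are not of independent genes. Since no gene passed, none of these differences is called a change.

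Among the repressors, Per1, the period gene that also answers acutely to stress hormones and light signals, gave the clearest values. It stood at 9.71, 12.8 and 9.09 CPM in chronic RA F, M1 and M2. In chronic CS F, M1, M2, M3 and M4 it stood at 23.9, 36.1, 33.5, 28.2 and 21.2 CPM. Every smoke library therefore lay above every room air library, by a log2 fold change of 1.44 ± 0.26 (SE), with an unadjusted p of 0.000144 and an adjusted p of 0.172 by edgeR. The exact two-sided permutation test of the single values gave p = 0.0357, the smallest that 5 against 3 libraries allow. Every gene whose groups do not overlap gives this p, as 9.41% of all genes did, so it adds nothing to the lack of overlap. DESeq2 called Per1 with an adjusted p of 1.19e-05. Over the edgeR alternatives its adjusted p ranged from 0.064 to 0.578, and its log2 fold change from 1.23 to 1.61.

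Per3, another period gene, stood at 29.1, 32.8 and 20.9 CPM in chronic RA F, M1 and M2. In chronic CS F, M1, M2, M3 and M4 it stood at 37.1, 55.4, 67.9, 54.2 and 55.1 CPM, again above all controls. The epithelial and mesenchymal sums were likewise higher in every chronic CS library than in every chronic RA library. Of the blood endothelial genes Vwf and Aplnr were too, but the other genes of that list and its sum overlapped. The part of these cells in the Per1 and Per3 values was not tested. The log2 fold change was 0.97 ± 0.22 with an adjusted p of 0.245 by edgeR, the exact permutation p was 0.0357, and DESeq2 called it with an adjusted p of 0.00249. Cry2, a cryptochrome that blocks Clock and BMAL1, was 26.0, 39.2 and 31.0 CPM in chronic RA against 44.9, 37.1, 43.8, 64.9 and 64.5 CPM in chronic CS. Those groups overlapped through chronic CS M1, the log2 fold change was 0.67 ± 0.22 (adjusted p = 0.333 by edgeR, 0.0461 by DESeq2), and the exact permutation p was 0.0714. Per2, a period gene without which the rhythm of mice is short or lost, differed by 0.68 ± 0.36 and Cry1, the cryptochrome that acts late in the cycle, by 0.15 ± 0.34 on the log2 scale, both with overlapping groups.

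The groups of both activators overlapped, as did those of the repressors Per2, Cry1 and Cry2. Clock, the partner of BMAL1, was the steadiest of the 10, at 63.3 to 72.2 CPM in chronic RA and 65.3 to 90.6 CPM in chronic CS. Arntl was 42.8, 28.9 and 44.6 CPM in chronic RA F, M1 and M2. It was 55.4, 26.2, 28.7, 12.3 and 16.5 CPM in chronic CS F, M1, M2, M3 and M4, so that chronic CS held both the highest and the lowest of the 8 values. The log2 fold change was -0.48 ± 0.41 (adjusted p = 0.693 by edgeR).

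The nuclear receptors and the output gene were also widely spread within chronic CS. Nr1d1 was 103, 132 and 64.4 CPM in chronic RA F, M1 and M2. It was 96.6, 143 and 119 CPM in chronic CS F, M1 and M2 but 264 and 287 CPM in M3 and M4, with a log2 fold change of 0.86 ± 0.38 (unadjusted p = 0.0427, adjusted p = 0.446 by edgeR). Dbp was 29.9, 37.0 and 17.6 CPM in chronic RA, 27.4, 46.5 and 27.4 CPM in chronic CS F, M1 and M2, and 98.3 and 115 CPM in M3 and M4. Its log2 fold change of 1.16 ± 0.52 had an unadjusted p of 0.0469 and an adjusted p of 0.454 by edgeR. Dbp shares 18.0% of its exon bases with Sphk2 on the opposite strand and Nr1d1 8.55% with Thra, and the library kit keeps no strand, so reads there cannot be told apart. Sphk2 (log2 fold change -0.20) and Thra (-0.18) had no higher mean in chronic CS.

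**Figure D2:**
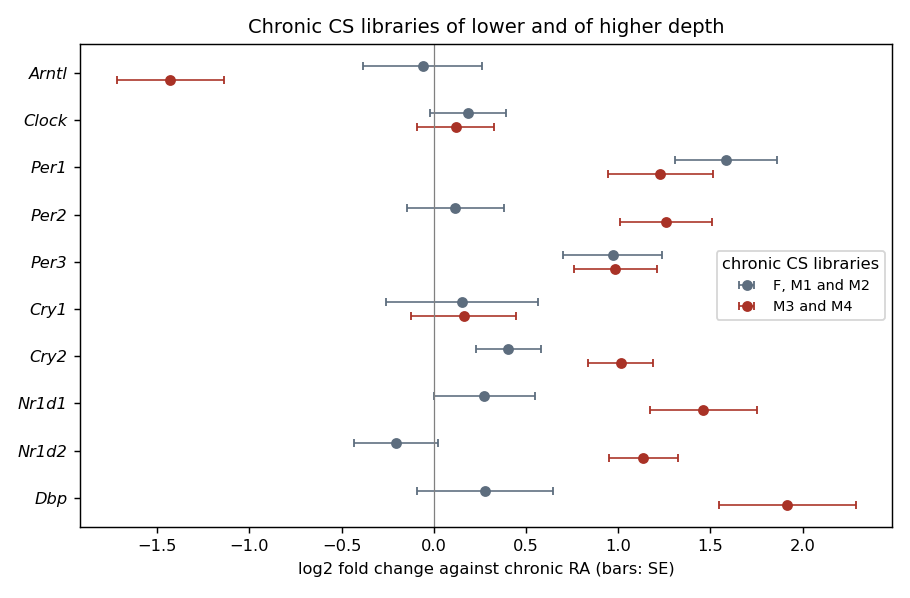
Fitted log2 fold change of each clock gene against the 3 chronic RA libraries (horizontal axis, bars are SE) when only chronic CS F, M1 and M2 (grey) or only chronic CS M3 and M4 (red) enter. Per1 and Per3 lie near each other in both sets, whereas Arntl, Per2, Nr1d1, Nr1d2 and Dbp lie apart.

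The 5 chronic CS libraries fell into 2 sets of sequencing depth, and 6 of the 10 clock genes did not overlap between these sets. Of all genes tested, 26.6% did not overlap in this way, and of the 22 other clock genes 10 did not. The sets were chosen with results known, so these counts are a description. In M3 and M4, with 47494020 and 45436986 counts, Arntl lay below and Per2, Cry2, Nr1d1, Nr1d2 and Dbp lay above all of F, M1 and M2, which held 18821438 to 22885446 counts. The mean of M3 and M4 was 3.16 times that of F, M1 and M2 for Dbp, 2.56 times for Nr1d2, 2.31 times for Nr1d1, 2.23 times for Per2 and 0.391 times for Arntl. Against chronic RA, the fitted log2 fold change of Dbp was 0.28 with F, M1 and M2 alone and 1.92 with M3 and M4 alone. Nr1d1 gave 0.27 and 1.46, Nr1d2 -0.21 and 1.14, and Arntl -0.06 and -1.43. Per1 gave 1.58 and 1.23 and Per3 0.97 and 0.98, against Cry2 with 0.40 and 1.01 and Per2 with 0.12 and 1.26. Clock (0.18 and 0.12) and Cry1 (0.15 and 0.16) were near 0 in both. Both fits use the same 3 chronic RA libraries. What else differed between the sets, collection time included, was not tested.

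After acute CS, Per1, Nr1d1 and Dbp stood 2.41-fold, 2.51-fold and 2.69-fold above acute RA and Arntl and Clock stood below it, without a gene of the 10 passing the adjusted limit. Over all genes 745 of 21440 (3.47%) were called by edgeR and 2013 by DESeq2. The count by edgeR rested on single libraries, with 3 genes called without acute RA M, 79 without acute RA F and 175 without acute CS F, and it was 139 with only the groups compared and 73 with the replicate block. Of the 10 genes, 2 had an unadjusted p under 0.05 (15.7% of all genes), and the groups of 6 did not overlap (49.9% of all genes). With 2 libraries against 2, the exact two-sided permutation p cannot go below 0.333. The median log2 fold change of the 10 was 0.13 beside 0.04 over all genes tested.

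Per1 was 21.3 and 15.3 CPM in acute RA F and M and 55.7 and 32.4 CPM in acute CS F and M. Its log2 fold change was 1.27 ± 0.33 with an adjusted p of 0.0671 by edgeR, and DESeq2 called it at 0.00556. Among the edgeR alternatives it passed only without acute CS M (adjusted p = 0.0328), a fit in which acute CS is 1 library that is assumed to vary like the other groups. Without acute CS F the log2 fold change was 0.83 (adjusted p = 0.486 by edgeR), and without acute RA M it was 1.02 (adjusted p = 0.438 by edgeR). Nr1d1 was 122 and 87.8 CPM in acute RA and 219 and 307 CPM in acute CS. The log2 fold change of Nr1d1 was 1.33 ± 0.51 (unadjusted p = 0.024, adjusted p = 0.221 by edgeR). Dbp was 58.7 and 36.1 CPM in acute RA and 87.5 and 168 CPM in acute CS, which gave 1.43 ± 0.69 on the log2 scale (adjusted p = 0.359 by edgeR). The value for Dbp was 0.89 without acute CS M and 1.83 without acute CS F. Sphk2, which shares exon bases with Dbp, had a log2 fold change of 0.59 and Thra one of 0.09.

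The fitted levels of both activators were lower in acute CS, without passing. Arntl was 17.2 and 27.9 CPM in acute RA F and M against 12.7 and 14.95 CPM in acute CS, and Clock was 77.0 and 66.7 CPM against 66.3 and 38.6 CPM. The groups did not overlap for either gene, and the log2 fold changes were -0.71 ± 0.57 and -0.45 ± 0.23 (adjusted p = 0.653 and 0.394 by edgeR). For Clock the size rested on acute CS M, with -0.12 without it (adjusted p = 0.934 by edgeR) and -0.89 without acute CS F. Arntl was -0.35 without acute RA M and -1.01 without acute RA F. Cry2 was 0.42 ± 0.29 higher on the log2 scale, with groups that did not overlap. Per2, Per3, Cry1 and Nr1d2 overlapped, with log2 fold changes from -0.25 to 0.24. The leukocyte, blood endothelial and mesenchymal markers and Prox1 moved with the same 2 libraries, and their part in these values was not tested.

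**Figure D3:**
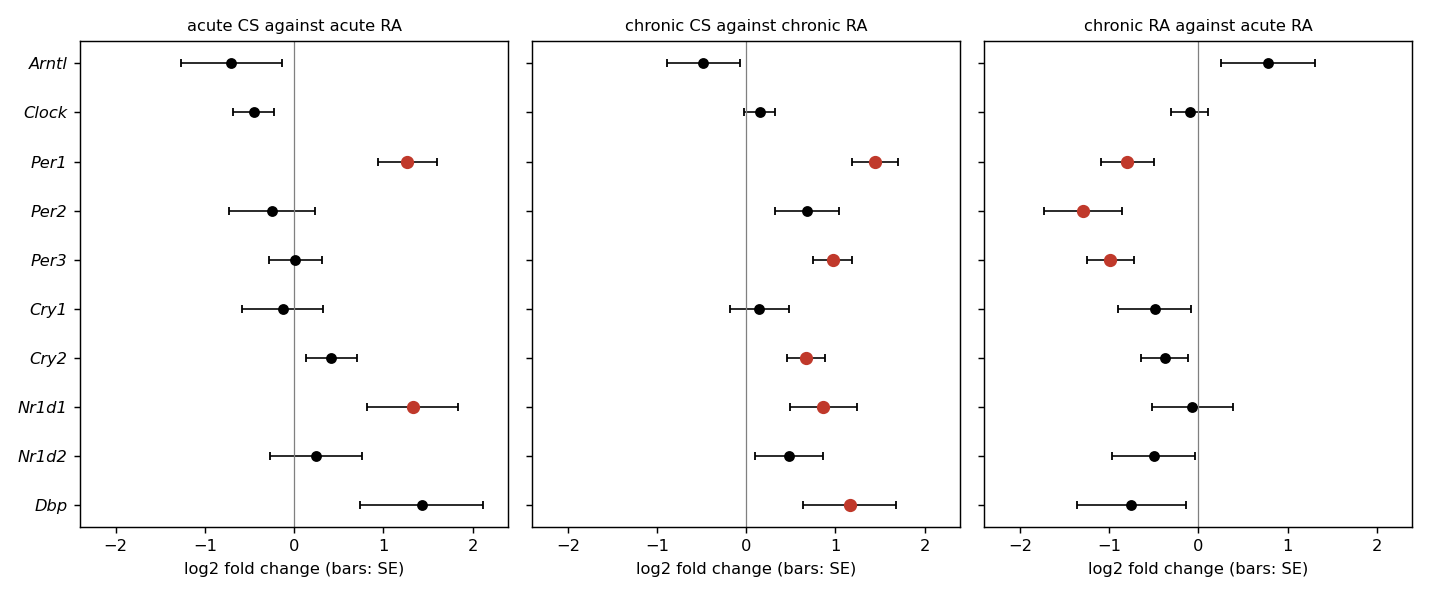
Fitted log2 fold change of each clock gene (horizontal axis, bars are SE) for the acute smoke, the chronic smoke and the room air comparison; red points have an unadjusted p under 0.05 by edgeR, and none has an adjusted p under 0.05. Per1 lies at 1.27 and 1.44 in the smoke comparisons and at -0.80 between the room air groups.

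Between the room air groups the period genes had the lowest p-values among the 10, all lower in chronic RA. In chronic RA, 9 of the 10 genes had a lower fitted level than in acute RA, with a median log2 fold change of -0.50 beside 0.00 over all genes tested. Per2 was 87.1 and 46.2 CPM in acute RA against 31.7, 27.2 and 22.8 CPM in chronic RA, a log2 fold change of -1.29 ± 0.43. Per3 differed by -0.99 ± 0.26 and Per1 by -0.80 ± 0.30 on the log2 scale. Without acute RA F the values were -0.76 for Per2, -0.65 for Per3 and -0.54 for Per1. Without acute RA M they were -1.695, -1.28 and -1.03. For the 3 period genes the groups did not overlap and the unadjusted p was 0.0122, 0.00314 and 0.0213, but the adjusted p was 0.594, 0.479 and 0.651 by edgeR. DESeq2 called only Per3 of the 10 (adjusted p = 0.0384). Arntl ran the other way, at 17.2 and 27.9 CPM in acute RA and 28.9 to 44.6 CPM in chronic RA, with a log2 fold change of 0.78 ± 0.53.

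Over all genes, edgeR called 0 of 21440 (0.0%) between the room air groups, with 1504 at an unadjusted p under 0.05 (7.01%) and 279 called by DESeq2, and 34.7% had groups that did not overlap, as 4 of the 10 clock genes did. The exact two-sided permutation p cannot go below 0.2 here. The room air groups differ in age, exposure time, pooling and depth, and these cannot be told apart. Chronic RA also had lower means of all 8 epithelial genes (242 to 497 CPM against 1035 to 1841 CPM in sum), higher means of all 4 erythroid genes (185 to 402 CPM against 35.5 to 65.2 CPM) and a higher lymphatic sum (19930 to 22930 CPM against 15250 to 17070 CPM, 6 of 8 genes), none overlapping, and their part was not tested. Because the chronic RA libraries enter both this and the chronic CS comparison, the low period gene values in chronic RA enter both. Per3 in chronic CS (37.1 to 67.9 CPM) overlapped with acute RA (43.3 and 66.3 CPM), and Per1 in chronic CS (21.2 to 36.1 CPM) overlapped with acute RA at its lower end (15.3 and 21.3 CPM).

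The test of the acute effect minus the chronic effect called none of the 10 genes, beside 97 of 21440 over all genes (0.452%), 86 of them with a positive difference. That count was 0 to 263 when 1 library was left out, 0 with the replicate block and 971 by DESeq2. An unadjusted p under 0.05, as 11.9% of all genes had, was found only for Per3 among the 10 genes. The difference for Per3 was -0.95 ± 0.37 on the log2 scale (adjusted p = 0.328 by edgeR). Of the 22 further clock genes 4 had an unadjusted p under 0.05, namely Nfil3 and Bhlhe40 and, named after their values were seen, Rorb and Timeless. Per1 had nearly the same fold change in both exposures, with a difference of -0.17 ± 0.41, an interval of -0.99 to 0.64 at 2 SE either side.

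Across the 12 libraries, those with high Arntl had low Dbp and those with low Arntl had high Dbp. Chronic CS F, with the highest Arntl at 55.4 CPM, had 27.4 CPM of Dbp, and chronic RA M2, with 44.6 CPM of Arntl, had the lowest Dbp at 17.6 CPM. Acute CS M held 14.95 CPM of Arntl and the highest Dbp at 168 CPM. The difference of Arntl minus Dbp in log2 CPM was 1.34 in chronic RA M2, 1.02 in chronic CS F and 0.52 in chronic RA F. It was -3.48 in acute CS M, -2.99 in chronic CS M3, -2.80 in chronic CS M4 and -2.78 in acute CS F, and the other 5 libraries lay between -1.77 and 0.07. The 4 libraries with the lowest difference were thus both acute CS libraries and chronic CS M3 and M4.

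**Figure D4:**
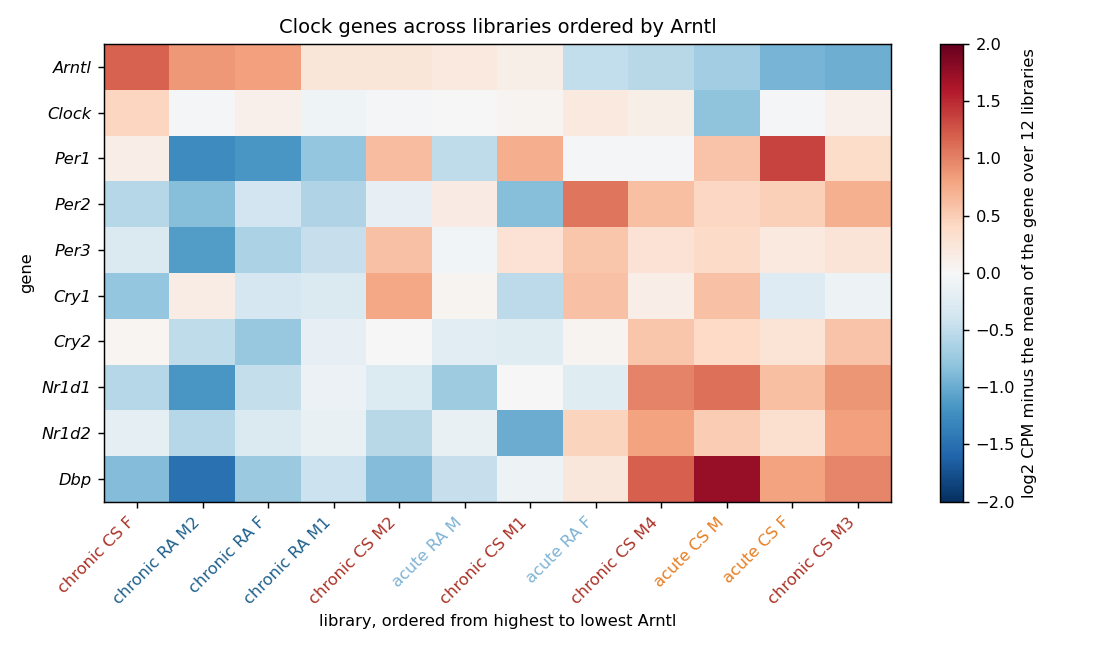
Log2 CPM of each clock gene minus its mean over the 12 libraries (colour), with the libraries ordered from the highest Arntl, chronic CS F at 55.4 CPM, to the lowest, chronic CS M3 at 12.3 CPM; label colours mark the groups. Dbp, Nr1d1, Nr1d2 and Cry2 are above their means in the 4 libraries at the right, and Clock varies least apart from acute CS M.

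Of 9 relations between Arntl and the other clock genes over the 12 libraries, 7 had an adjusted p under 0.05 for Pearson's r, all negative (permutation tests with 100000 resamples, two-sided). These tests treat the 12 libraries as exchangeable, although they share groups and depth. No p was computed for deviations from the group means. Of all 21439 other genes tested, 5.23% had an r at or below that of Per1, the weakest of the 7, and 7.75% one at least as far from 0. Dbp gave r = -0.885 (permutation p = 0.0002, adjusted p = 0.0018) and Spearman's rho = -0.874 (permutation p = 0.00038, adjusted p = 0.00342). Nr1d1 gave r = -0.841 (permutation p = 0.00076, adjusted p = 0.00342) and rho = -0.818 (permutation p = 0.00178, adjusted p = 0.00801). Per2 (r = -0.809, rho = -0.762), Cry2 (r = -0.782, rho = -0.755) and Nr1d2 (r = -0.733, rho = -0.72) followed, each with adjusted permutation p-values under 0.05 for both measures. For Per3 (r = -0.695, rho = -0.559) and Per1 (r = -0.613, rho = -0.573) r passed and rho did not, at an adjusted permutation p of 0.0797 for rho in both. Cry1 (r = -0.375, rho = -0.28) and Clock (r = 0.364, rho = 0.028) passed for neither.

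The relations of Dbp and Nr1d1 were about as large within groups. On deviations from the group means r was -0.804 for Dbp and -0.858 for Nr1d1, but -0.217 for Per1. Without chronic CS M3 and acute CS F, the 2 libraries farthest from the median Arntl, r was -0.875 for Dbp, -0.792 for Nr1d1 and -0.771 for Per2. Over the 8 chronic libraries alone it was -0.895, -0.916 and -0.806, and over the 4 acute libraries, too few for a relation, -0.775, -0.831 and -0.368. Without chronic CS M3 and M4, left out after the values were seen, r was -0.864 for Dbp and -0.798 for Nr1d1.

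The relations were also taken within libraries of similar depth. In the 6 libraries of over 40000000 counts Arntl lay at 12.3 to 27.9 CPM and in the other 6 at 26.2 to 55.4 CPM. Per2 did not overlap between these libraries, at 46.2 to 87.1 CPM against 22.8 to 36.8 CPM. Nr1d2 overlapped narrowly, at 128.7 to 254 CPM against 72.3 to 129.9 CPM. The share of all genes tested that did not overlap in this way was not computed. Within the deeper 6, r with Arntl was -0.732 for Dbp, -0.791 for Nr1d1, -0.812 for Cry2 and -0.425 for Per2. Within the other 6 it was -0.638, -0.738, -0.208 and -0.0538, and for Nr1d2 it was 0.504 there against -0.75 in the deeper ones. None of these 18 relations within a depth set passed, with a smallest adjusted p of 0.254 by exact permutation tests. With 6 libraries in a set these tests have little room to pass, so this does not show that a relation is absent. Per1 (-0.8 and -0.44) and Per3 (-0.506 and -0.615) were negative in both sets, as were Dbp, Nr1d1, Cry2 and Per2, and of the 7 relations that passed over 12 libraries that of Nr1d2 changed sign. Whether r differed between the sets was not tested. The part of depth was not tested further.

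**Figure D5:**
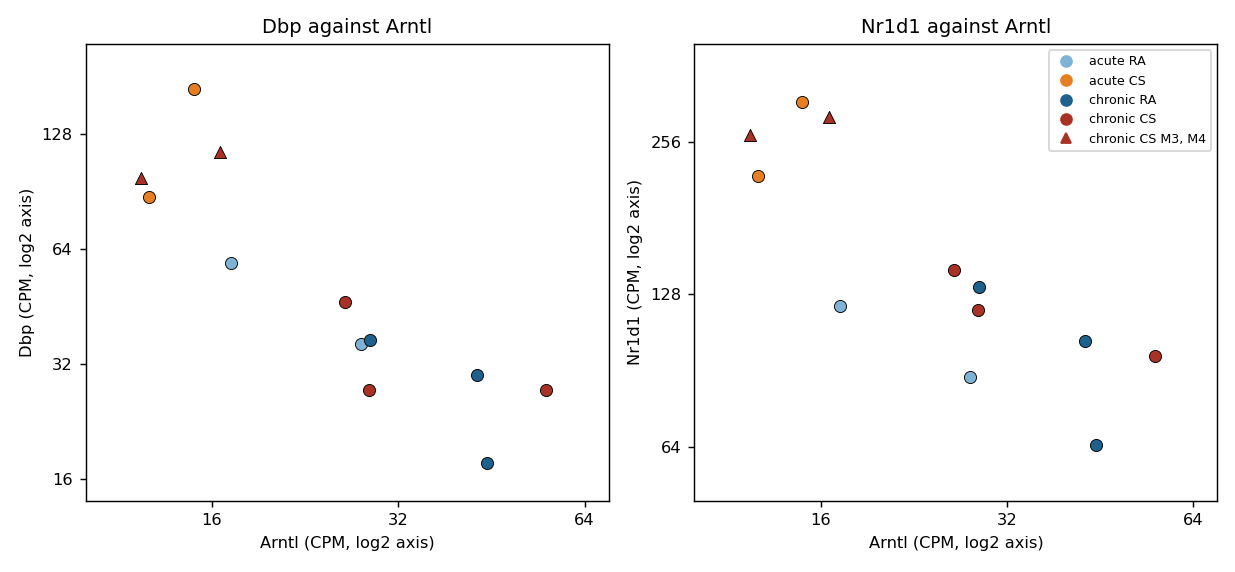
Dbp (left) and Nr1d1 (right) against Arntl in the 12 libraries (CPM, both axes on a log2 scale); colours mark the groups and triangles chronic CS M3 and M4. Both fall from the upper left, where acute CS and chronic CS M3 and M4 lie, to the lower right, where chronic RA and chronic CS F lie, with r = -0.885 for Dbp and -0.841 for Nr1d1.

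Among the other 21439 genes tested, those most opposite to Arntl over the 12 libraries included 2 genes for D-box binding factors. Tef, the thyrotroph embryonic factor and a close relative of Dbp, had the third lowest r of all, at -0.894, and Dbp itself the sixth lowest. Hlf, of the same family, ranked 565 from the lowest (r = -0.678), and Nfil3, which represses the same D-boxes, had a positive r (0.491). Nr1d1 ranked 28 from the lowest, Per2 71, Cry2 112, Nr1d2 239, Per3 439, Per1 1122 and Cry1 4404. On deviations from the group means Tef ranked 12, Nr1d1 39, Dbp 124, Per2 236, Cry2 479, Nr1d2 838, Per3 1544, Cry1 5886 and Per1 7428 from the lowest. The others of the 5 most opposite were Rasl12 (-0.907), Pmaip1 (-0.899), Gm43181 (-0.891) and Mpc1 (-0.887). Gm43181 had a median of only 0.0208 CPM, so its r rests on very few reads. Those most like Arntl were B9d1 (r = 0.932), Vstm4 (0.916), Gm26724 (0.911), Necap1 (0.894) and E130311K13Rik (0.879), and Clock ranked 2792 from the highest. Of these 10 genes 3 remained among the 10 when deviations from the group means were used. For Dbp, a search added after its values were seen, Nr1d1 had the highest r of all genes (0.952) and Tef the fourth highest (0.901). Nr1d1 also had the highest r with Dbp on deviations from the group means (0.979), where Tef ranked 16. These are descriptions over 12 libraries that share groups and depth.

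Of 22 further genes of the clock, listed by role, all 22 were tested and none passed the adjusted limit by edgeR in any of the 4 comparisons. In acute CS 2 were higher and 2 lower at an unadjusted p under 0.05, and in chronic CS 3 were higher, beside 15.7% and 10.9% of all genes. The median log2 fold change was -0.04 in acute CS and 0.00 in chronic CS. Rora, a ROR receptor that activates Arntl through the RORE, was 19.7 and 19.1 CPM in acute RA and 39.5 and 68.2 CPM in acute CS (log2 fold change 1.47 ± 0.38, adjusted p = 0.0635 by edgeR). Rora is also expressed by innate lymphoid and mesenchymal cells. Npas2, a paralog of Clock, was 4.21 and 5.96 CPM in acute RA against 0.353 and 0.564 CPM in acute CS (adjusted p = 0.316 by edgeR).

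Ciart, whose 3 E-boxes are shown above, gave one of the widest spreads. It was 6.18 and 8.57 CPM in acute RA and 21.2 and 32.02 CPM in acute CS. It was 2.27 to 3.34 CPM in chronic RA, 1.59 to 6.44 CPM in chronic CS F, M1 and M2, and 14.8 and 14.6 CPM in chronic CS M3 and M4, following the same libraries as Dbp. The log2 fold change was 1.85 ± 0.91 in acute CS and 1.51 ± 0.69 in chronic CS (adjusted p = 0.366 and 0.458 by edgeR). Tef was 142 to 186 CPM in chronic CS F, M1 and M2 and 328 and 325 CPM in M3 and M4, and Hlf, the third factor of that family, differed by 0.89 ± 0.41 on the log2 scale in chronic CS.

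Nfil3, which represses the same D-boxes that Dbp activates, was 0.95 ± 0.29 higher on the log2 scale in chronic RA than in acute RA (adjusted p = 0.536 by edgeR) and -0.46 ± 0.22 in chronic CS against chronic RA. Bhlhe40, an E-box repressor, was 157 to 218 CPM in chronic RA and 242 to 340.1 CPM in chronic CS. It was the only 1 of the 22 further clock genes whose groups did not overlap there, beside 9.41% of all genes. Bhlhe40 had a log2 fold change of 0.56 ± 0.18 (adjusted p = 0.33 by edgeR). Its exact permutation p of 0.0357 follows from that lack of overlap. Its relative Bhlhe41 was 0.249 to 12.1 CPM in chronic CS, around the 2.66 to 4.35 CPM of chronic RA.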

How the data were processed

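RNA of FACS-sorted lung LECs was sequenced in 12 libraries, prepared with SMART-Seq v4 and Nextera XT, which keep no strand. The authors deposited raw counts of reads for each Ensembl identifier, not normalized. Per the study's methods the authors checked reads with FastQC (0.11.9), trimmed them with Skewer, ran further quality checks with Minion, and aligned and counted with STAR (GeneCounts) on GRCm38. The annotation release is not given in the sources used here. Gene names, positions and union exon lengths were taken from GENCODE M21, in which 147 identifiers were not found; their share of the counts was 0.011% or less in each library.

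Counts were filtered by expression, scaled by TMM and fitted by group over all 12 libraries with edgeR 4.0.16 (R 4.3.3, quasi-likelihood test), with Benjamini-Hochberg adjustment over 21440 genes and a limit of 0.05. The SE is the log2 fold change divided by the square root of F. Log2 CPM used a prior count of 2. Alternatives were DESeq2 1.42.0, library size scaling, no filter, only the groups compared, sex, a replicate block, and leaving libraries out. Permutation tests were run with scipy 1.17.1. No library was a copy of another. Named genes were the 10 members, 8 further clock genes, any of the 22 listed that passed the limit, the genes most and least like Arntl, and genes that share exon bases with a member. The members, lists and depth sets were chosen with earlier results of these data known.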

Additional observations from a re-analysis of the deposited data

How the results depend on the processing

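None of the 10 clock genes passed by edgeR in any comparison except Per1, without acute CS M. DESeq2 called 1 in acute CS, 3 in chronic CS and 1 between the room air groups. Of 560 values of single genes under an alternative, 522 kept their direction and side of the limit, 6 passed it and 32 reversed, none of which had passed.

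Genes called of all tested moved with DESeq2 to 2013 (acute CS), 594 (chronic CS), 279 (room air) and 971 (acute minus chronic effect); without the filter to 10, 6 and 191 in the last 3; with only the groups compared to 139 (acute CS) and 42 (room air); and with sex to 21 for the difference of effects. With only chronic CS F, M1 and M2 there was 1 chronic call, and with only M3 and M4 there were 16. Leaving out 1 library gave 3 to 858 acute calls, 0 to 4 chronic calls and 0 to 263 for the difference, with 3 acute calls without acute RA M. Clock members called ranged from 0 to 1 in acute CS.

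Deviations from the group means of same-labelled libraries had correlations of 0.0693 in acute and -0.0419, 0.0342 and 0.00601 in chronic. With so few libraries per group these values cannot show whether the labels pair them. With the replicate block 73 acute, 0 chronic and 0 difference calls were made and none among the clock genes; Nr1d2 became -0.24 and Cry1 -0.012 in chronic CS, and Nr1d2 0.51 and Cry2 0.022 for the difference of effects.

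Other reversals were Per3 in acute CS (-0.021 with library size, -0.014 without the filter) and Nr1d2 with chronic CS F, M1 and M2 only (-0.21 in chronic CS, 0.40 for the difference). With M3 and M4 only, the difference became 0.72 for Arntl, 0.039 for Per1, -0.13 for Nr1d1 and -0.49 for Dbp. Without 1 library, acute values ran from -0.66 to 0.28 for Per2, -0.29 to 0.35 for Per3, -0.61 to 0.24 for Cry1 and -0.064 to 0.57 for Nr1d2, the chronic value of Cry1 from -0.13 to 0.33, and room air values from -0.22 to 0.0088 for Clock and -0.33 to 0.19 for Nr1d1. For the difference they ran from -0.53 to 0.19 for Arntl, -0.61 to 0.17 for Per1, -0.76 to 0.089 for Cry1, -0.55 to 0.094 for Nr1d2 and -0.28 to 0.66 for Dbp. With library size scaling, r with Arntl was -0.554 for Per1 and -0.604 for Per3 and no longer passed (adjusted permutation p = 0.0814 and 0.0562). Of the 10 genes most and least like Arntl, 3 were shared on deviations from group means. The cause of these moves was not tested.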
